A study of Mus musculus with 4 samples.

Results

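The receptor for granulocyte macrophage-colony stimulating factor (GM-CSF) and its close relatives are described here through 5 genes, *Csf2ra*, *Csf2rb*, *Csf2rb2*, *Il3ra* and *Il5ra*, of the 27998 genes in the deposited count table. They were chosen by name and not by their values, though with earlier results of these data known. CITE-seq counts RNA molecules by unique molecular identifiers (UMIs) and antibody-derived tags in the same cells, here splenocytes of *Mus musculus* sorted for CD11b. There was 1 library from mice in steady state (4827 cells) and 1 library, in the GM-conditioned state, from mice given GM-CSF in 3 once-daily injections (6804 cells). In the study's methods, mice were 8 to 12 weeks old, each subcutaneous injection held 10 µg of GM-CSF, and cells were isolated 24 h after the last one. The strain behind these libraries and the number of mice in each are not given in the sources used here. Lymphocytes in the data are those that passed the CD11b gate.

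GM-CSF is bound by the alpha chain of its receptor, encoded by *Csf2ra*, and the signal is carried by the common beta chain, encoded by *Csf2rb*. The beta chain works through the kinase JAK2 and the transcription factor STAT5, and the alpha chains for interleukin-3 (IL-3) and interleukin-5 (IL-5), encoded by *Il3ra* and *Il5ra*, share it. Mice carry a further beta chain gene, *Csf2rb2*, whose product serves the IL-3 receptor alone. In myeloid cells this family supports survival, maturation and the generation of dendritic cells (DCs) from monocytes, whereas the IL-5 receptor is best known on eosinophils and B-1 cells.

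On the mouse genome build GRCm38 (mm10), *Csf2rb* (chr15:78325752-78353847, plus strand) and *Csf2rb2* (chr15:78282507-78305721, minus strand) are neighbours. The gene *Csf2ra* lies at chr19:61223957-61228429 on the minus strand, *Il3ra* at chr14:14346275-14356011 on the plus strand and *Il5ra* at chr6:106710357-106749037 on the minus strand. The beta chain genes resemble each other, so a transcript of *Csf2rb* (4900 bases) was compared with one of *Csf2rb2* (4740 bases). Of the 4810 windows of 91 bases in the former, 387 also stood in the latter, but 0 of the 910 windows within its last 1000 bases did, where a 3′ library is read. Reads from these 3′ ends can thus be assigned to 1 of the genes by sequence, while reads from further upstream may be uncertain.

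Promoter windows, from 250 bases before to 50 bases after the start, were matched in RefSeq (GRCm38.p6) for 4 of the 5 genes, not for *Csf2rb*. Those of *Csf2ra* and *Csf2rb2* are shown because these genes differed in opposite directions between the libraries in classical monocytes. Capitals mark GAGGAA, the core of sites for the myeloid factor PU.1, on either strand (TTCCTC when read on the other), and TTCNNNGAA, the core of sites for STAT proteins. The windows are chr19:61228369-61228668 and chr15:78305672-78305971, both on the minus strand and written 5′ to 3′.
Csf2ra: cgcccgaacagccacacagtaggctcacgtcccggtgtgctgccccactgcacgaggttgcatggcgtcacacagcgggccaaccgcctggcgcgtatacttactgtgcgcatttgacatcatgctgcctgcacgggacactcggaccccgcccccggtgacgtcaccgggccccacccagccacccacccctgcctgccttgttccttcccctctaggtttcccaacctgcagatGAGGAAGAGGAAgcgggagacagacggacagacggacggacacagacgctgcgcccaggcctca
Csf2rb2: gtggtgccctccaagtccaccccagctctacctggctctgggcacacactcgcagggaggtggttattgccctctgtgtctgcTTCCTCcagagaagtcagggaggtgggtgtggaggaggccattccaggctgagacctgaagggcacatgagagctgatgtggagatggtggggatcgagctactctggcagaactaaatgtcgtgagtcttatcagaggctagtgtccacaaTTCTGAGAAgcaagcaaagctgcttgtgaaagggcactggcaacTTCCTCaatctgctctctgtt
The window of *Csf2ra* held GAGGAA 2 times and TTCNNNGAA 0 times, and that of *Csf2rb2* held GAGGAA 2 times and TTCNNNGAA 1 time, with no overlap between marked letters. Among 32851 windows of this length, 28.3% held GAGGAA at least 1 time, 4.82% held it at least 2 times and 8.30% held TTCNNNGAA. A match of letters describes the window and does not show binding.

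The libraries held 22358903 UMIs in steady state and 35007567 after GM-CSF, at medians of 3371 and 4916 UMIs per cell, and 8 cell barcodes occurred in both. In the same order there were 4742 and 6340 UMIs of *Csf2ra*, 4359 and 7112 of *Csf2rb*, 420 and 1148 of *Csf2rb2*, 427 and 759 of *Il3ra*, and 14 and 1 of *Il5ra*. A level is the summed UMIs of a gene over the cells of a group, scaled to counts per 1000000 UMIs of that group (CPM), with its 95% Poisson interval in parentheses. A ratio is the level after GM-CSF over that in steady state, with its 95% interval. All intervals cover counting error only. Since each condition rests on a single library, no p-value is given between conditions, and the effects of treatment and of library cannot be told apart.

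Transcripts of both GM-CSF receptor chains stood higher in granulocytes, neutrophils, progenitor DCs and 3 of the 4 mixed clusters with features of monocytes, macrophages and DCs than in B and T cells, in both libraries. In steady state *Csf2ra* stood at 287 CPM (269-304) in granulocytes and 276 CPM (254-299) in the mixed cluster c5. These neighbours in the order did not differ beyond counting error. Next came the mixed clusters c1 at 236 CPM (227-246) and c2 at 211 CPM (189-235). Progenitor DCs stood at 155 CPM (133-178) and neutrophils at 151 CPM (129-176). B cells stood at 71.9 CPM (55.3-92.0), below neutrophils beyond counting error. The fourth mixed cluster, c4, stood in steady state at 35.6 CPM (20.4-57.8) for *Csf2ra* and 26.7 CPM (13.8-46.6) for *Csf2rb*, below B cells. Of its 43 cells there, 27 held at least 3 UMIs of NK cell genes.

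The lowest levels came from cells that should lack the receptor. In T cells *Csf2ra* stood at 27.5 CPM (16.8-42.5), and in the cluster deposited as cDC2-A at 23.3 CPM (14.2-36.0). The markers went against that name, since all 6 genes of the NK cell list had UMIs there and summed to 18484 CPM, so the cluster is called by its deposited name only. After GM-CSF *Csf2ra* had no UMI in the 39 T cells and the 20 cDC2-A cells. Granulocyte and neutrophil genes summed to 109897 CPM in granulocytes and 366324 CPM in neutrophils in steady state, and to 2390 CPM in c1.

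After GM-CSF the order of *Csf2ra* was another one. The mixed cluster c2 stood at 242 CPM (232-253), c5 at 220.0 CPM (176-272) and granulocytes at 219 CPM (201-239). Neighbours among these did not differ beyond counting error, whereas granulocytes stood above the next in order, c4, by a ratio of 1.22 (1.10-1.36). Below them stood c4 at 179.7 CPM (169-191), neutrophils at 157 CPM (146-168), c1 at 156 CPM (148-165) and progenitor DCs at 97.0 CPM (86.1-109).

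**Figure D1:**
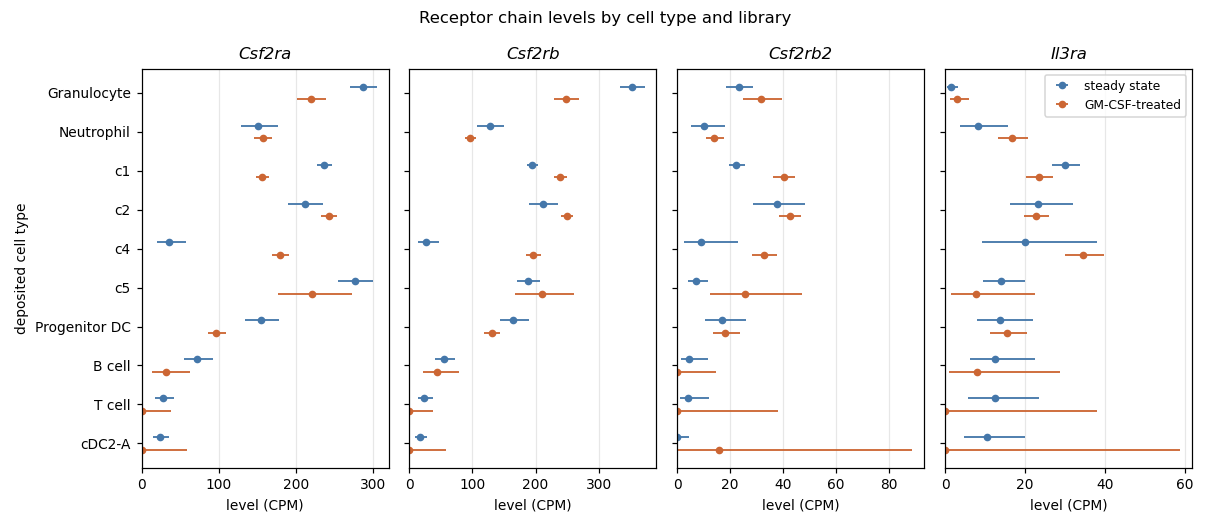
Levels of *Csf2ra*, *Csf2rb*, *Csf2rb2* and *Il3ra* (CPM, linear axis from 0, each gene with its own axis) in 10 deposited cell types, with steady state in blue, GM-CSF-treated in orange and bars for 95% Poisson intervals. In steady state *Csf2ra* and *Csf2rb* reached 287 and 353 CPM in granulocytes, where *Il3ra* stood at 1.36 CPM, and both lay between 16.3 and 27.5 CPM in T cells and the cDC2-A cluster.

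The common beta chain *Csf2rb* stood in steady state at 353 CPM (334-373) in granulocytes and 232 CPM (139.6-362) in the 8 activated DCs, which did not differ beyond counting error. It stood at 212 CPM (190.3-236) in c2, 195 CPM (186-204) in c1 and 188 CPM (170.4-208) in c5. Progenitor DCs held 165 CPM (143-189) and neutrophils 127 CPM (107-150.4). T cells held 23.4 CPM (13.6-37.4) and the cDC2-A cluster 16.3 CPM (8.91-27.4). After GM-CSF c2 stood at 249.8 CPM (239.8-260.2), granulocytes at 249 CPM (229-269), activated DCs at 242 CPM (159-352) and c1 at 239 CPM (229-249.8), and no neighbours in that order differed beyond counting error. Neutrophils stood at 96.2 CPM (87.8-105).

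The IL-3 receptor beta chain *Csf2rb2* was a minor transcript. In steady state it stood at 37.6 CPM (28.7-48.4) in c2, 23.1 CPM (18.5-28.6) in granulocytes, 22.3 CPM (19.4-25.5) in c1 and 6.97 CPM (3.90-11.5, 15 UMIs) in c5. After GM-CSF it stood at 42.4 CPM (38.3-46.8) in c2, 31.5 CPM (24.8-39.4) in granulocytes and 40.2 CPM (36.1-44.6) in c1. The treated c5 cells held 25.6 CPM (12.3-47.1, 10 UMIs). Activated DCs, only 8 and 20 cells, stood at 61.0 CPM (19.8-142, 5 UMIs) and 71.6 CPM (30.9-141, 8 UMIs).

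The IL-3 alpha chain *Il3ra* did not follow the GM-CSF chains over cell types. In steady state it was lowest in granulocytes, at 1.36 CPM (0.442-3.18, 5 UMIs), where *Csf2ra* and *Csf2rb* were high. After GM-CSF it stood there at 2.90 CPM (1.17-5.98, 7 UMIs). In c1 it stood at 30.04 CPM (26.7-33.7) and 23.4 CPM (20.3-26.9), and in c4 after GM-CSF at 34.5 CPM (29.9-39.7). T cells in steady state held 12.4 CPM (5.66-23.5, 9 UMIs) and c5 13.9 CPM (9.41-19.9), intervals that overlap, so that *Il3ra* in c5 was not set apart from cells used as background.

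The IL-5 alpha chain *Il5ra* was seen almost entirely in B cells, with 13 of its 15 UMIs in 11 of them. The level there was 13.7 CPM (7.08-23.9, 12 UMIs) in steady state and 3.98 CPM (0.101-22.2, 1 UMI) after GM-CSF. The other 2 UMIs lay in 2 granulocytes of steady state. In the Focus bundle, the 6075 cells of the 4 mixed clusters and the progenitor DCs that the study took further, *Il5ra* had 0 UMIs in both libraries, which allows up to 0.201 and 0.111 CPM (3 counts).

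The 11 B cells with an *Il5ra* UMI all carried the B cell genes *Cd79a* and *Ms4a1*. Of the B-1 cell genes, *Bhlhe41* stood at 109 CPM (4 UMIs) in them and 52.3 CPM (57 UMIs) in the 264 other B cells. *Plscr1* stood at 54.4 CPM (2 UMIs) and 10.1 CPM (11 UMIs), *Zbtb32* at 27.2 CPM (1 UMI) and 26.6 CPM (29 UMIs), and *Cd5* had 0 and 2 UMIs. The 7 eosinophil genes had 0 UMIs in these 11 cells. Counts this small leave wide intervals. Of the eosinophil genes, the 2 granulocytes with an *Il5ra* UMI held 1 UMI of *Siglecf* and 0 of the others. In the 3718 other granulocytes *Siglecf* stood at 32.5 CPM (198 UMIs) and *Ccr3* at 6.57 CPM (40 UMIs). There *Ear6* had 25 UMIs and *Prg3* 3, and *Epx*, *Prg2* and *Ear1* had 0.

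In the classical monocytes among CD115hi cells, called P-I after the gating on tags, the alpha chain was lower and the beta chains were higher in the GM-CSF-treated library. The level of *Csf2ra* was 268 CPM (238-301, 293 UMIs) in 139 steady-state cells and 143 CPM (124-165, 200 UMIs) in 187 treated cells, a ratio of 0.535 (0.445-0.642). The level of *Csf2rb* was 196 CPM (170.5-224) and 234 CPM (209-261), a ratio of 1.19 (1.001-1.42). That of *Csf2rb2* was 20.1 CPM (12.6-30.5, 22 UMIs) and 42.3 CPM (32.2-54.6, 59 UMIs), a ratio of 2.10 (1.27-3.601). The intervals of *Csf2ra* and of *Csf2rb2* did not overlap between the libraries, whereas those of *Csf2rb* did. The IL-3 alpha chain *Il3ra* stood at 28.4 CPM (19.3-40.3) and 22.9 CPM (15.7-32.4), and the interval of its ratio, 0.809 (0.478-1.37), spanned 1.

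By a rule of 2-fold, with 0.5 counts added to each sum and at least 50 UMIs over both groups, 1 of the 4 members that passed the minimum in P-I was higher (*Csf2rb2*) and 0 were lower. The share of genes past the rule was 4.99% higher and 7.12% lower of 5774 genes. A ratio at or below that of *Csf2ra* was held by 8.92% of genes, and the median ratio was 0.933. Taken as a mean over cells, the ratio of *Csf2rb2* was 1.91, short of 2-fold. In G1 cells alone the ratio of *Csf2ra* was 0.596.

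Other features of the P-I cells moved with these ratios. Genes of classical monocytes (5 of 5 found in each library) summed to 3679 CPM in steady state and 1538 CPM after GM-CSF, and those of non-classical monocytes (5 of 5) to 1161 and 348 CPM. In steady state 31.7, 21.6 and 18.7% of P-I cells lay in RNA clusters 2, 5 and 6, and after GM-CSF 28.3, 16.04 and 14.97% lay in clusters 2, 7 and 1. Their part in the ratios was not tested.

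**Figure D2:**
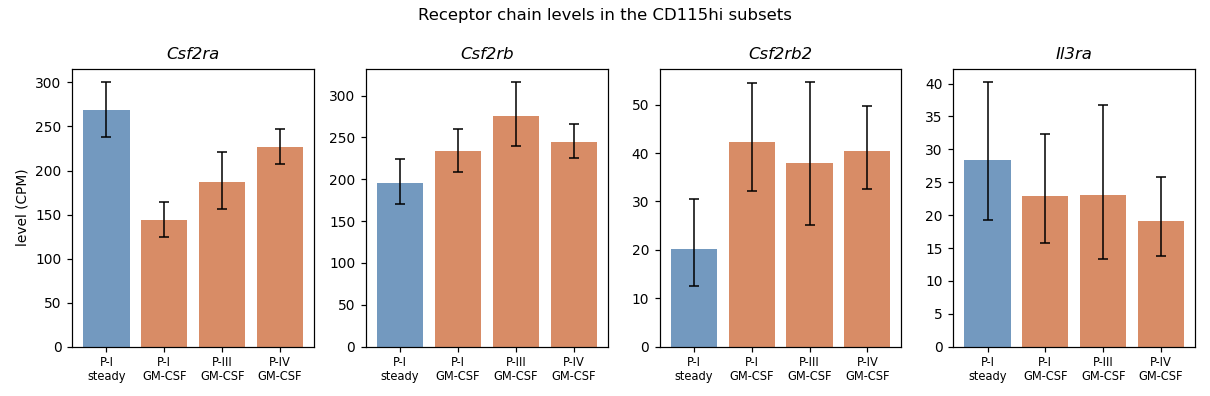
Levels of *Csf2ra*, *Csf2rb*, *Csf2rb2* and *Il3ra* (CPM, bars from 0, 95% Poisson intervals) in P-I of both libraries and in P-III and P-IV of the GM-CSF-treated library, with steady state in blue and GM-CSF-treated in orange. The level of *Csf2ra* was 268 CPM in steady-state P-I and 143, 187 and 226 CPM in P-I, P-III and P-IV after GM-CSF, while *Csf2rb* lay between 196 and 276 CPM.

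In clusters 2, 5 and 6, which held most of the steady-state P-I cells, *Csf2ra* was also lower after GM-CSF over all cells of each cluster. In cluster 2 *Csf2ra* stood at 238 CPM (218-259, 518 UMIs) and 147 CPM (131-165, 292 UMIs), a ratio of 0.619 (0.534-0.716), whereas *Csf2rb* had a ratio of 1.002 (0.889-1.13) and *Csf2rb2* of 1.64 (1.21-2.23). In cluster 5 the ratios were 0.687 (0.579-0.811) for *Csf2ra* and 1.22 (1.04-1.44) for *Csf2rb*, and in cluster 6 they were 0.575 (0.468-0.703) and 0.957 (0.778-1.17). Granulocyte and neutrophil genes summed to 373 CPM in the steady-state cells of cluster 6 and 3978 CPM in its treated cells, and classical monocyte genes to 7465 and 3198 CPM. Cluster 3, with 88 steady-state and 512 treated cells, went the other way for *Csf2ra*, from 184 to 229 CPM, a ratio of 1.24 (1.03-1.51). There genes of DC progenitors and classical DCs summed to 487 and 125 CPM, those of classical monocytes to 1063 and 325 CPM, and those of macrophages to 64.6 and 197 CPM. The part of these genes in the ratios was not tested. In cluster 9, where genes of DC progenitors and classical DCs summed to 975 CPM in steady state, both chains were lower, with ratios of 0.541 (0.431-0.678) and 0.782 (0.635-0.963).

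Single members passed 2-fold in 3 clusters. In cluster 1 it was *Csf2rb2* at 2.49 (1.12-6.88), where 7.23% of genes were higher and 6.74% lower. In cluster 10 it was *Csf2ra* at 0.501 (0.290-0.921) before the counts were added, where 15.8% were higher and 9.15% lower. In cluster 15 it was *Csf2rb* at 0.463 (0.301-0.719), where 6.61% were higher and 8.27% lower. Of these, cluster 15 had 7 steady-state cells and cluster 10 had 16 UMIs of *Csf2ra* there. In cluster 8 all 4 members that passed the minimum were higher, with ratios of 5.58 (3.01-11.7) for *Csf2ra* and 8.62 (4.16-21.5) for *Csf2rb*, where 12.5% of genes were higher and 11% lower. NK cell genes summed to 11630 CPM in the 28 steady-state cells of cluster 8 and 0.273 CPM in the treated ones. In cluster 7 they summed to 4989 CPM in steady state, with all 6 genes found, and 0.324 CPM after GM-CSF, beside ratios of 1.002 (0.740-1.38) for *Csf2ra* and 1.34 (0.983-1.87) for *Csf2rb*. The part of NK cell genes in the ratios was not tested.

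**Figure D3:**
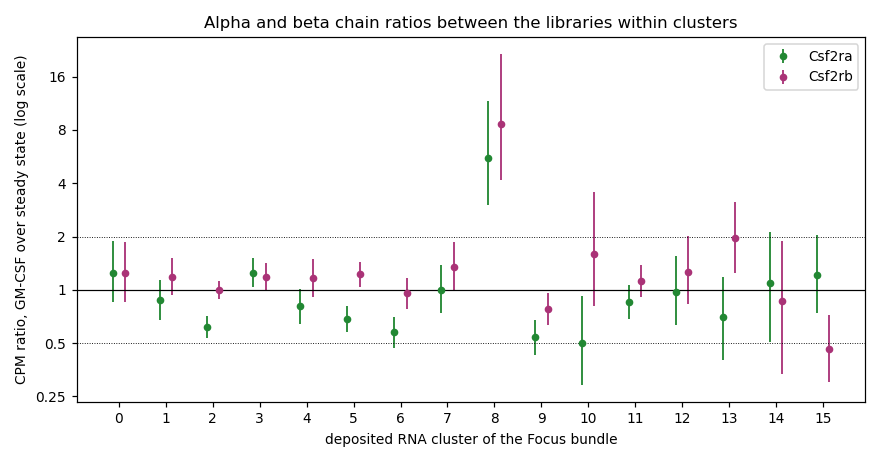
Ratio of CPM, GM-CSF over steady state (log scale), of *Csf2ra* in green and *Csf2rb* in purple in the 16 RNA clusters of the Focus bundle in which both genes passed the minimum, with 95% intervals for counting error, a solid line at 1 and dotted lines at 2-fold. The intervals of *Csf2ra* lay below 1 in clusters 2, 5, 6, 9 and 10, cluster 8 stood at 5.58 and 8.62, and the steady-state cells of clusters 7 and 8 carried NK cell genes.

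Over the mixed cluster c1, which held 1277 and 1342 cells, *Csf2ra* stood at 236 CPM in steady state and 156 CPM after GM-CSF, a ratio of 0.660 (0.617-0.707). The ratios of *Csf2rb*, *Csf2rb2* and *Il3ra* there were 1.23 (1.15-1.31), 1.80 (1.52-2.15) and 0.780 (0.648-0.937). So the alpha chains of both receptors were lower and both beta chains higher, none past 2-fold, where 5.48% of genes were higher and 7.26% lower. In c2 the ratios were 1.15 (1.02-1.29) for *Csf2ra*, 1.18 (1.05-1.32) for *Csf2rb*, 1.13 (0.858-1.51) for *Csf2rb2* and 0.977 (0.687-1.43) for *Il3ra*, again none past 2-fold, where 6.02% of genes were higher and 6.81% lower. In c5 *Csf2ra* had a ratio of 0.797, with an interval that reached 1, and *Csf2rb* of 1.11 (0.868-1.42). Neither was past 2-fold (2.43% of genes higher, 6.73% lower). There *Csf2rb2* (15 and 10 UMIs) and *Il3ra* (30 and 3 UMIs) were under the minimum of the rule. In progenitor DCs *Csf2ra* and *Csf2rb* were lower, at 0.627 (0.521-0.757) and 0.791 (0.666-0.941), also short of 2-fold (5.81% of genes higher, 8.06% lower).

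In granulocytes both chains of the GM-CSF receptor were lower after GM-CSF by like ratios. For *Csf2ra* the ratio was 0.765 (0.688-0.850) and for *Csf2rb* it was 0.704 (0.638-0.776), while the interval for *Csf2rb2*, 1.36 (0.986-1.88), spanned 1. None of these passed 2-fold, where 7.29% of 6257 genes were higher and 3.2% lower, and the median ratio of those genes was 1.08. The gene *Il3ra*, with 5 and 7 UMIs in granulocytes, was under the minimum of the rule. In neutrophils the ratio was 1.04 (0.877-1.24) for *Csf2ra* and 0.755 (0.624-0.919) for *Csf2rb*. There *Il3ra* stood at 8.25 CPM (3.77-15.7, 9 UMIs) and 16.6 CPM (13.2-20.6, 82 UMIs), a ratio of 2.01 (1.01-4.56) that was under 2-fold once the counts were added (3.62% of genes higher, 2.48% lower).

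In c4 and in B cells 3 members and 1 member passed 2-fold. In c4 the ratios were 5.05 (3.09-8.86) for *Csf2ra*, 7.36 (4.19-14.3) for *Csf2rb* and 3.66 (1.41-13.6) for *Csf2rb2*, where 12.7% of genes were higher and 12% lower. The 43 steady-state cells of c4 carried all 6 NK cell genes, at a sum of 11399 CPM, and the 595 treated cells 2 of them, at 0.349 CPM. In 16 of the 43 cells, those with fewer than 3 UMIs of these genes, *Csf2ra* stood at 75.7 CPM (41.4-127, 14 UMIs) and *Csf2rb* at 54.1 CPM (25.9-99.5, 10 UMIs). Against them the ratios were 2.37 and 3.63 (a choice made after seeing the data). In B cells *Csf2ra* had a ratio of 0.443 (0.183-0.928) from 63 and 8 UMIs, where 1.41% of genes were higher and 13.8% lower. With every cell thinned to 1000 UMIs the ratio was 0.987, from no more than those UMIs and without an interval.

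The balance of beta to alpha chain counts, the summed UMIs of *Csf2rb* over those of *Csf2ra* in the same cells, does not depend on the total of a group. Transcripts of the genes may be captured unequally, so it is compared between groups and not read as a ratio of proteins. In P-I it was 0.730 (0.609-0.874) in steady state and 1.63 (1.36-1.95) after GM-CSF, a ratio of 2.23 (1.73-2.89). In c1 it was 0.824 (0.774-0.876) and 1.53 (1.43-1.64), a ratio of 1.86 (1.70-2.04). So 1 count of the alpha chain was matched by fewer than 1 of the beta chain in P-I and c1 in steady state and by more than 1 after GM-CSF.

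In c2 and granulocytes the balance did not differ beyond counting error. In c2 it was 1.01 (0.863-1.17) and 1.03 (0.973-1.09), and in granulocytes 1.23 (1.14-1.34) and 1.13 (1.01-1.28), with ratios of 1.02 (0.869-1.21) and 0.920 (0.796-1.06) whose intervals spanned 1. In neutrophils it was lower after GM-CSF, 0.842 (0.667-1.06) and 0.613 (0.546-0.688), a ratio of 0.728 (0.561-0.945). For the IL-3 beta chain, counts of *Csf2rb2* per count of *Csf2ra* had a ratio of 3.93 (2.28-6.95) in P-I, 2.73 (2.27-3.30) in c1 and 1.78 (1.26-2.499) in granulocytes. In c2 and neutrophils it was 0.983 (0.728-1.34) and 1.32 (0.672-2.82), with intervals that spanned 1. In c5 it was 4.60 (1.78-11.3), from only 15 and 10 UMIs of *Csf2rb2*.

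**Figure D4:**
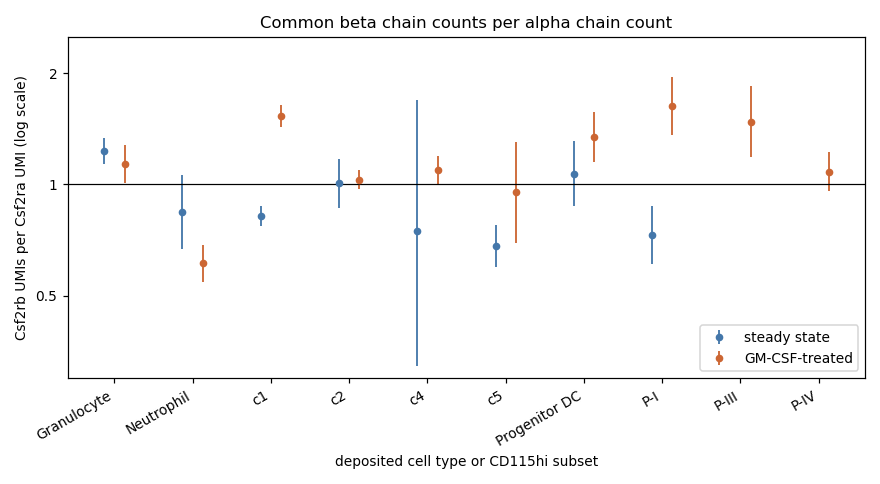
UMIs of *Csf2rb* per UMI of *Csf2ra* (log scale) in deposited cell types and CD115hi subsets, with steady state in blue, GM-CSF-treated in orange and 95% intervals for counting error. The values were 0.730 and 1.63 in P-I of the libraries and 1.48 and 1.08 in P-III and P-IV after GM-CSF, whose 12 and 7 steady-state cells are not drawn.

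Within the GM-CSF-treated library *Csf2ra* was higher in the pre-GMiDCs (P-III) and in the GM-CSF-induced DCs, or GMiDCs (P-IV), than in P-I. It stood at 143 CPM (124-165) in P-I, 187 CPM (157-220.5, 138 UMIs) in P-III and 226 CPM (207-247, 509 UMIs) in P-IV. P-III over P-I gave 1.30 (1.04-1.62), P-IV over P-III 1.21 (1.003-1.48) and P-IV over P-I 1.58 (1.34-1.87). The common beta chain *Csf2rb* stood at 234, 276 and 245 CPM, and its P-IV over P-I ratio, 1.05 (0.913-1.21), spanned 1. Likewise *Csf2rb2* had 0.957 (0.682-1.35) and *Il3ra* 0.834 (0.515-1.36). The balance of *Csf2rb* to *Csf2ra* was 1.63 in P-I, 1.48 (1.19-1.85) in P-III and 1.08 (0.958-1.22) in P-IV.

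No member passed 2-fold between these subsets, where 3.63% of 6803 genes were higher and 3.53% lower in P-IV than in P-I (1.11 and 2.71% for P-III over P-I, 1.91 and 1.01% for P-IV over P-III). A ratio at or above that of *Csf2ra* in P-IV over P-I was held by 8.45% of genes. Red cell genes summed to 837 CPM in P-IV and 1.43 CPM in P-I, and 1877 of their 1881 UMIs in P-IV lay in 1 cell, without which *Csf2ra* stood at 227 CPM. With cells of both libraries pooled by subset, P-IV over P-I gave 1.14 and P-III over P-I 0.947, below 1.

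How often a chain was seen in single cells depended on their depth. In P-I a UMI of *Csf2ra* was found in 82.7% of 139 (75.4-88.6) in steady state and 55.6% of 187 (48.2-62.9) after GM-CSF (95% Clopper-Pearson intervals), at medians of 7264 and 7232 UMIs per cell. In steady-state T cells, which should lack the receptor, it was found in 6.90% of 174 (3.61-11.7) at a median of 3747. With cells thinned to 1000 UMIs these shares were 20.3%, 10.9% and 2.31%. In each case the P-I shares stood above that of T cells.

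A UMI of both *Csf2ra* and *Csf2rb* was found, among P-I cells, in 57.6% of 139 (48.9-65.9) in steady state and 46.0% of 187 (38.7-53.4) after GM-CSF, where the product of the single shares is 57.1 and 42.5%. In P-I the cells with *Csf2ra* alone numbered 35 and 18, and those with *Csf2rb* alone 16 and 57. In P-IV after GM-CSF both were found in 56.9% of 313 (51.2-62.4). In granulocytes both were found in 18.9% of 1929 (17.2-20.7) and 7.26% of 1791 (6.10-8.56), at medians of 1770 and 1229 UMIs per cell, and with thinning in 7.08 and 4.02%. In steady-state T cells both were found in 4.02% of 174 (1.63-8.11).

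The surface tags described the levels without gates. Cells of the Focus bundle were split into quartiles of tag counts within each library. After GM-CSF *Csf2ra* stood at 148, 153, 189.6 and 239.9 CPM from the lowest to the highest quartile of CD301b, a lectin that marks GMiDCs, and the ratio between the end quartiles was 1.62 (1.49-1.76). For *Csf2rb* the levels were 195, 216, 219 and 249 CPM, a ratio of 1.28 (1.19-1.38). In steady state *Csf2ra* stood at 213, 224, 225 and 240.0 CPM, a ratio of 1.13 (1.02-1.25) that was 1.002 with cells thinned to 1000 UMIs. With the same thinning the ratio after GM-CSF was 1.58. The difference between the libraries was not tested.

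Over quartiles of Ly6C, the tag of classical monocytes, *Csf2ra* after GM-CSF stood at 202, 199.7, 189 and 158 CPM, a ratio of 0.784 (0.723-0.851). Over MHC II it stood at 248, 243, 233 and 191 CPM in steady state, a ratio of 0.772 (0.701-0.850). After GM-CSF it stood at 164, 175, 197 and 199.97 CPM over MHC II, a ratio of 1.22 (1.13-1.33) that was 1.05 with thinned cells. Over CD115, the receptor of M-CSF, *Csf2rb* after GM-CSF stood at 179, 229, 236 and 240.2 CPM, a ratio of 1.35 (1.25-1.45). With thinned cells the steady-state ratio over MHC II was 0.751. Where tags were taken as a share of each cell's tag counts, 7 of 20 ratios between end quartiles left their counting interval.

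**Figure D5:**
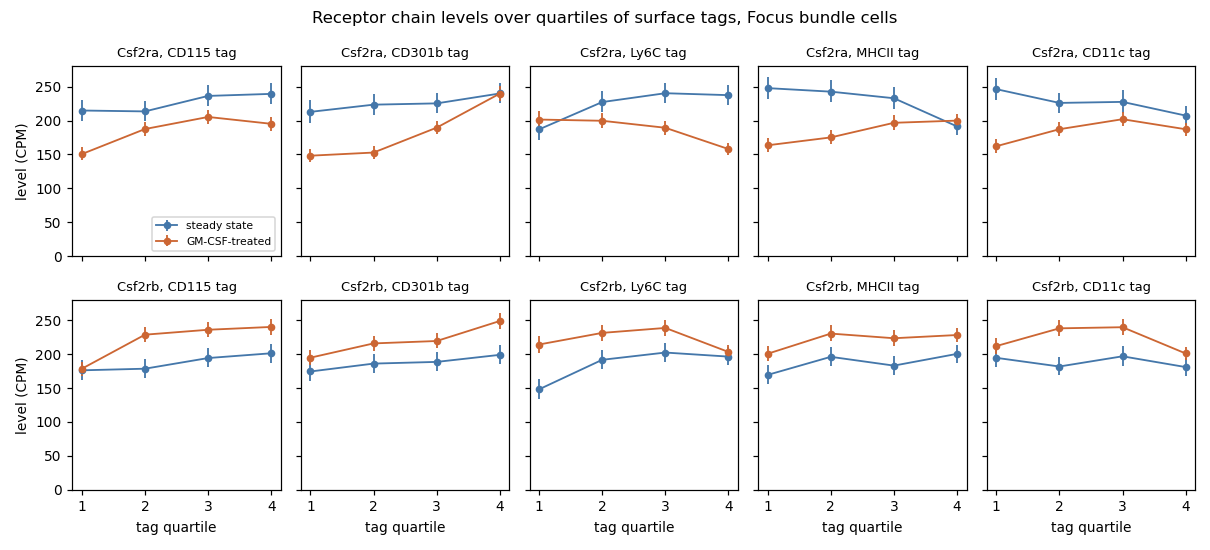
Levels of *Csf2ra* (top) and *Csf2rb* (bottom) in CPM over quartiles of 5 surface tags in Focus bundle cells, 1 for the lowest tag counts and 4 for the highest, with steady state in blue, GM-CSF-treated in orange and 95% Poisson intervals. After GM-CSF *Csf2ra* stood at 148 CPM in the lowest and 239.9 CPM in the highest CD301b quartile.

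By the deposited cell cycle phase, *Csf2rb* in the Focus bundle stood at 198 CPM (189.5-206) in G1, 176 CPM (160.0-193) in S and 115 CPM (95.3-137) in G2M in steady state. The level of *Csf2ra* was 233 CPM, 223 CPM and 168 CPM. After GM-CSF *Csf2rb* stood at 239 CPM, 214 CPM and 184 CPM, and *Csf2ra* at 201 CPM, 162 CPM and 164 CPM. Both chains were thus lower in G2M than in G1 in each library. The steady-state G2M cells numbered 135. Steady-state cells of clusters 7 and 8 carried NK cell genes (4989 and 11630 CPM), and their part in the levels by phase was not tested.

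Of the 28 other genes of the pathway, the ligands *Csf2*, *Il3* and *Il5* had no UMI in P-I of either library or in P-IV after GM-CSF. In P-I 18 genes passed the minimum, 0 were past 2-fold higher and 3 lower (4.99% of the genes tested higher, 7.12% lower). Among the lower ones were *Socs3*, a feedback inhibitor, from 74.1 to 36.6 CPM (ratio 0.493, 0.341-0.709), and *Pim1*, a kinase gene induced by STAT5, from 424 to 205 CPM (ratio 0.484, 0.416-0.562). The median ratio of those that passed was 0.774 against 0.933 over all genes. Under the minimum, *Myc*, a growth regulator, had 3 and 15 UMIs (ratio 3.92, 1.11-21.1). There *Ccnd2*, a cyclin gene, had 12 and 2 UMIs (ratio 0.131, 0.0142-0.587). The kinase *Jak2* had 1.14 (0.816-1.61), *Stat5a* 0.888 (0.583-1.36) and *Stat5b* 0.775 (0.577-1.04), with intervals that spanned 1. The interval of *Stat3*, 0.577 (0.471-0.705), lay below 1.

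In c1, 23 pathway genes passed, 2 were past 2-fold higher and 3 lower (5.48% of the genes tested higher, 7.26% lower), with a median of 0.796 against 0.9497 over all genes. The higher ones were *Cish*, a feedback inhibitor induced by STAT5, from 0.525 to 5.31 CPM (ratio 10.1, 4.03-32.6) with 5 and 46 UMIs, and the growth regulator *Myc*, from 2.31 to 12.7 CPM (ratio 5.49, 3.45-9.12). Among the lower ones were again *Socs3* at 0.360 (0.318-0.408) and *Pim1* at 0.417 (0.397-0.438). *Jak2* had a ratio of 1.68 (1.49-1.90), *Stat5a* of 0.975 (0.846-1.12), *Stat5b* of 0.633 (0.567-0.707) and *Stat3* of 0.555 (0.515-0.598).

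In granulocytes 21 pathway genes passed, where 7.29% of the genes tested were higher and 3.2% lower. Of them 1 was higher, the adaptor *Shc1* at 2.12 (1.68-2.67), and 3 were lower, among them *Socs1*, a feedback inhibitor, at 0.381 (0.190-0.709) and *Pim1* at 0.401 (0.378-0.425). The median of the 21 was 0.807 against 1.08 over all genes. Under the minimum, with 4 and 30 UMIs, *Cish* went from 1.09 to 12.4 CPM (ratio 11.4, 4.02-44.6). In P-IV over P-I after GM-CSF 19 passed (3.63% of the genes tested higher, 3.53% lower), with *Myc* higher at 2.27 (1.27-4.33) and *Socs3* lower at 0.401 (0.251-0.634), and a median of 1.03 against 1.01. *Jak2* had 1.81 (1.41-2.32) there. *Stat5a* had 1.35 (0.961-1.92), *Stat5b* 0.878 (0.669-1.16) and *Stat3* 0.825 (0.674-1.01), with intervals that spanned 1.

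Of 13 receptors for related cytokines or myeloid growth factors, 8 passed the minimum in P-I, 0 were past 2-fold higher and 3 lower (4.99% of the genes tested higher, 7.12% lower). The lower ones were *Csf1r*, the receptor of M-CSF, from 700.1 to 304 CPM (ratio 0.434, 0.385-0.490), *Csf3r*, that of G-CSF, from 342 to 96.8 CPM (ratio 0.283, 0.231-0.345), and the common gamma chain *Il2rg*, from 86.9 to 34.4 CPM (ratio 0.396, 0.274-0.566). In c1, 9 passed, 0 were higher and 3 lower (5.48% of the genes tested higher, 7.26% lower), *Csf1r* at 0.422 (0.401-0.443), *Csf3r* at 0.207 (0.187-0.228) and *Flt3*, a receptor of DC progenitors, at 0.218 (0.152-0.304). In P-IV over P-I 1 of 8 was lower (3.63% of the genes tested higher, 3.53% lower), *Csf3r* at 0.0597 (0.0310-0.106). In granulocytes 0 of 7 were past 2-fold (7.29% of the genes tested higher, 3.2% lower). The medians were 0.739 in P-I, 0.647 in c1, 0.724 in P-IV over P-I and 0.847 in granulocytes, beside the medians of all genes given above.

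Genes whose levels were most like those of each member were found among 9751 genes by Pearson's correlation of log2(CPM + 10) over 19 groups of type and library with at least 100000 UMIs. The groups share libraries, depth and free RNA, so the values are a description. For *Csf2ra* these were *Ltbr* (r = 0.947), *Spi1*, which encodes PU.1 (r = 0.941), *Sirpa* (0.935), *Pirb* (0.935) and *Pqlc1* (0.930), and for *Csf2rb* *Rab32* (0.951), *Sirpa* (0.936), *Spi1* (0.929), *Ralb* (0.926) and *Atp6v0b* (0.913). For *Csf2rb2* they were *Asap1* (0.870), *Rbpj* (0.836), *Prkra* (0.835), *Rab32* (0.834) and *Ift57* (0.818), and for *Il3ra* *Anxa4* (0.852), *Itga1* (0.851), *Sec61b* (0.850), *Yif1b* (0.848) and *Vdac1* (0.846). Among the members, *Csf2ra* and *Csf2rb* had r = 0.918, *Csf2rb* and *Csf2rb2* r = 0.822, and *Csf2rb* and *Il3ra* r = 0.118.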

How the data were processed

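CD11b+ splenocytes of 1 steady-state and 1 GM-CSF-treated library were measured with 10x Chromium 3′ v3 CITE-seq. The deposited tables hold raw UMI counts per gene and cell and raw counts of 5 antibody tags. The authors made the UMI counts with Cell Ranger 3.0.2 (per the labels) on mm10 and, by the study's methods, the tag counts with CITE-seq-Count. They then removed cells under 200 or over 5000 genes or above 15% mitochondrial reads. The deposited percent of mitochondrial UMIs per cell was used for 1 alternative filter. Cell types, clusters, CD115hi subsets (gated on tags) and cell cycle phases were taken as the authors deposited them, from both libraries after integration in Seurat 3.6.0. All 11631 cells, 22358903 and 35007567 UMIs, were used.

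Counts were summed per group and library and scaled to CPM in Python 3.11.15 (numpy 2.4.6, scipy 1.17.1, pandas 2.3.3). Levels carry exact Poisson intervals, ratios exact binomial-based intervals and shares of cells Clopper-Pearson intervals, all at 95%. Genes were counted as past 2-fold with 0.5 counts added and at least 50 UMIs over both groups. The scripts were tested on simulated counts. Alternatives were cells thinned to 1000 UMIs, doublets left out (Scrublet in scanpy 1.11.5, which called 3.15 and 2.73% of cells), totals without the 50 top genes, at most 10% mitochondrial UMIs, means over cells, G1 cells only, other folds and minimums, pooled libraries, tag shares and other likeness measures. The doublets were kept in the values reported. The genes named, apart from 1 that is not reported here, are the 5 members, the pathway and related receptor genes past 2-fold with the main signalling genes, and the 5 genes most like each member. Also named, after the data were seen, are pathway genes under the minimum whose intervals left out 1 in P-I and granulocytes. The members and the lists were chosen with earlier results of these data known.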

Additional observations from a re-analysis of the deposited data

Results flagged for a closer look

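Receptor genes differed in direction between cell types under the same contrast, GM-CSF-treated over steady state. For *Csf2ra* the ratio of CPM was 1.15 in c2 and 0.66 in c1. For *Csf2rb* it was 1.18 in c2 and 0.704 in granulocytes. For *Il3ra* it was 2.01 in neutrophils, from 9 UMIs in steady state, and 0.78 in c1. In each of these pairs the interval for counting error lay above 1 in the former type and below 1 in the latter, but with 1 library per condition the differences were not tested.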

How the results depend on the processing

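No paired analysis was possible because there was 1 library per condition and no test was run. Of 340 alternative values for the comparisons, 311 stayed within the counting interval (for counts of genes, within 1.5 times), and 29 moved further, while leaving out doublets or cells over 10% mitochondrial UMIs moved 0 of 51 each. Doublets were 3.15 and 2.73% of the cells, so leaving them out kept most of the same counts. Of 463 alternative values for single levels and genes, 322 stayed and 141 moved. Of those that moved, 58 (of 58) came from totals without the 50 top genes, 62 from thinning and 7 (of 20) from tags taken as a share of each cell's tag counts. A total without the 50 top genes is smaller and raises every level. By Spearman's rank correlation, 1 of the 5 genes most like *Csf2ra*, 1 for *Csf2rb*, 3 for *Csf2rb2* and 1 for *Il3ra* were the same.

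With cells thinned to 1000 UMIs, the ratio of *Csf2rb2* was 2.19 in c1, 1.52 in c2 and 3.77 in P-I. The B cell ratios were then 0.987 for *Csf2ra* and 0.145 for *Csf2rb*. Before thinning, P-I held 22 and 59 UMIs of *Csf2rb2*, and B cells 63 and 8 of *Csf2ra* and 48 and 11 of *Csf2rb*. The thinned ratios of these groups rest on no more than these UMIs and carry no interval. In the Focus bundle thinning gave 0.749 for *Csf2ra*, 1.24 for *Csf2rb*, 2.25 for *Csf2rb2* and 1.66 for *Csf2rb* per *Csf2ra*. As a mean over cells, *Csf2ra* was 1.02 in c2, 2.83 in c4 and 0.776 in the Focus bundle. Totals without the 50 top genes gave 0.864 for *Csf2ra* and 1.24 for *Csf2rb* in the Focus bundle, and G1 cells alone 0.861 for *Csf2ra*. Without NK-marked cells, an alternative chosen after seeing the data, c4 gave 2.37 for *Csf2ra* and 3.63 for *Csf2rb*. These ratios rest on 14 and 10 UMIs in steady state. With pooled libraries *Csf2ra* gave 0.947 for P-III over P-I, which turned its direction from 1.30, and 1.14 for P-IV over P-I. At 1.5-fold, 12 member ratios between libraries, over the cell types, P-I and the Focus bundle with the single RNA clusters left out, and 1 between subsets were past the fold (5 and 0 at 2-fold). Genes past the fold in P-I were 703 higher and 1100 lower at 1.5-fold and 76 and 134 with at least 200 UMIs (288 and 411 as reported), and in P-IV over P-I 708 and 599 or 78 and 69 (247 and 240 as reported). The cause of these shifts was not tested.

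The main limit is 1 library per condition, so that intervals hold counting error only. The members with few UMIs, *Csf2rb2*, *Il3ra* and *Il5ra*, and the types with few cells have wide intervals.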

Other observations

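In the GM-CSF-treated library 2 cells carried at least 10 UMIs of basophil and mast cell genes (*Mcpt8*, *Cpa3*, *Fcer1a*, *Gata2*, *Ms4a2* and *Prss34*), a limit set after the data were seen. Over their 16820 UMIs they held 15 UMIs of *Csf2rb* (892 CPM, 499-1471), 5 of *Csf2rb2* (297 CPM, 96.5-694), 3 of *Il3ra* (178 CPM, 36.8-521) and 1 of *Csf2ra* (59.5 CPM, 1.51-331). The lower bound of *Csf2rb* stood above its level in every deposited cell type, of which granulocytes in steady state were the highest at 353 CPM. The lower bound of *Csf2rb2* stood above its level in activated DCs after GM-CSF, 71.6 CPM, whereas the interval of *Il3ra* took in the level of 53.7 CPM of those cells. With 2 cells of 1 library, these are values and no comparison was tested.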
